A study of Homo sapiens with 6 samples.

Results

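The intermediate filament genes of HEK293 cells are 10 genes, chosen by name and matched to the gene symbols of the deposited table of read counts. They are 5 genes of neuronal filaments (*NEFL*, *NEFM*, *NEFH*, *INA* and *PRPH*), 3 keratin genes of simple epithelia (*KRT8*, *KRT18* and *KRT19*), and the mesenchymal and progenitor filament genes *VIM* and *NES*. They are 10 of the 56811 genes in the count tables and 10 of the 23617 that had at least 10 reads summed over 6 libraries and were tested. The rule lists genes by name and uses no measured value, but it was set with earlier results of these data known.

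The 6 libraries came from HEK293T, a human embryonic kidney cell line, with 3 libraries of sh-control cells and 3 of cells whose labels name a short-hairpin RNA against *RREB1*, a zinc finger transcription factor. Per the methods of the study, the hairpins were delivered by lentivirus and the lines were kept under drug selection, with no other treatment. Per the labels, all cells were grown in DMEM with serum and total RNA was sequenced strand by strand. Nothing in the sources states that the 3 libraries of a group were separate cultures, so p-values measure only the spread between these libraries, which may be technical.

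Intermediate filaments are rope-like polymers of coiled-coil proteins, and each cell type is known for its own set. Keratins polymerize only as pairs of a type I and a type II chain, whereas vimentin and desmin can form filaments alone, and the larger neurofilament chains and nestin assemble with partners. HEK293 cells were derived from embryonic kidney and are known to express neurofilament genes beside vimentin and the keratins of simple epithelia.

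CPM stands for counts per 1e+06 reads, here after TMM scaling of the libraries. Differences were tested with edgeR (quasi-likelihood), p-values were adjusted by Benjamini and Hochberg's method over all 23617 genes, and a gene counted as called when its adjusted p was under 0.01 with a log2 fold change beyond 1 in either direction. Fold changes are those of sh-*RREB1* over sh-control. The libraries held 12257054 to 33044061 reads on genes, the lowest in sh-*RREB1* replicate 3, where 52.1% of the aligned reads had more than one position (3.66% to 7.63% elsewhere). The level of *RREB1* itself was 27.1, 25.1 and 26.5 CPM in sh-control compared to 23.7, 24.6 and 23.1 CPM under the sh-*RREB1* label, a log2 fold change of -0.14 (SE 0.13, 95% interval -0.43 to 0.15, adjusted p = 0.489 by edgeR). All 3 sh-*RREB1* libraries were slightly below the controls, but the difference did not pass the test with or without a correction for GC content and length, so every direction given rests on the labels. The log2 fold change of expressed genes followed their GC content (Spearman rho 0.593 over 14331 genes, which are not independent replicates), from a median of -0.23 in the decile of lowest GC content to 1.11 in the decile of highest. Sh-control replicate 1 departed from the other control libraries along the same axis, from 0.25 to -1.08. The fold changes of the members are therefore also given with the GC and length trend of each library removed, except for *KRT19*. For *RREB1* that value was -0.36 (adjusted p = 0.0519 by edgeR), and -0.37 when the fit was also blocked by replicate (adjusted p = 0.0105).

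In these libraries *NEFL* and *VIM* were higher in sh-*RREB1*, by 1.86-fold and 1.68-fold, and *NES* was lower, at 0.419 times the control level. These were the members that reached an adjusted p below 0.01 by edgeR, 3 of 10 or 30.0%, against 5.43% of all genes. Only *NES* also passed the limit on fold change, so 1 of 10 members (10.0%) was called, against 3.38% of all genes called in either direction and 0.69% called lower. DESeq2 called the same member and no other, against 7.01% of all genes. In 5 of 10 members (50%) the groups did not overlap, *NEFL*, *NEFM* and *VIM* being higher and *NEFH* and *NES* lower, which is close to the 40.9% of all genes whose groups did not overlap. The median log2 fold change was 0.44 over the 10 members and 0.18 without *KRT19*, compared to 0.014 over all genes tested. At an unadjusted p below 0.05 by edgeR there were 6 of 10 members, against 34.2% of all genes. That count includes *KRT19*, whose reads were all in 1 library.

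**Figure D1:**
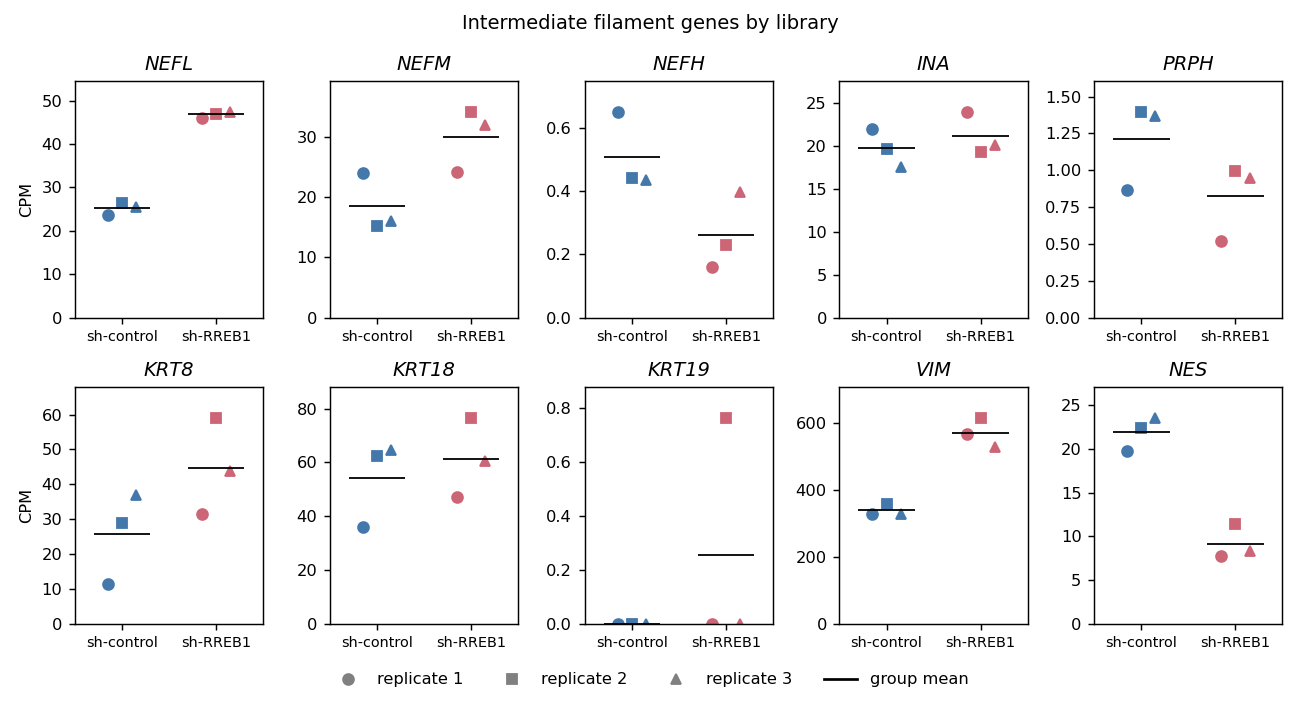
Levels of the 10 intermediate filament genes in each library, in CPM on linear axes that start at 0 and differ between panels; points are libraries, with a shape for each replicate number, and bars are group means. *NEFL* and *VIM* are higher in all 3 sh-RREB1 libraries and *NES* is lower in all 3, whereas *INA*, *PRPH*, *KRT8* and *KRT18* overlap and *KRT19* has reads in a single library.

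The neuronal filament genes did not move as a group. *NEFL* encodes the light chain of neurofilaments, on which the other chains assemble. It lies on chromosome 8 of GRCh38 from 24950955 to 24956721, on the minus strand. *NEFL* was at 23.6, 26.3 and 25.5 CPM in control replicates 1 to 3 and at 46.0, 47.0 and 47.4 CPM in sh-*RREB1*. Every sh-*RREB1* library was far above every control library, and the spread within each group was small. The log2 fold change was 0.90 (SE 0.12, 95% interval 0.62 to 1.17, adjusted p = 0.00370 by edgeR), and 0.91 after removal of the GC and length trend (adjusted p = 6.88e-05). The exact two-sided permutation test over libraries gave 0.1, the smallest p that 3 against 3 allows, for this and the other 4 members whose groups did not overlap. Without sh-control replicate 2 or 3, or without sh-*RREB1* replicate 1, 2 or 3, the adjusted p of *NEFL* by edgeR rose to 0.0326, 0.0133, 0.0166, 0.0108 and 0.0286, with a log2 fold change of 0.88 to 0.91.

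*NEFM*, the medium chain, is the neighbour of *NEFL*, from 24913758 to 24919098 on the plus strand of the same chromosome. It was at 24.1, 15.3 and 16.1 CPM in the controls and at 24.2, 34.2 and 32.0 CPM in sh-*RREB1*. The groups only just parted, since sh-control replicate 1 was as high as sh-*RREB1* replicate 1 within rounding. The log2 fold change of 0.70 (SE 0.22, 95% interval 0.22 to 1.19) had an adjusted p of 0.0505 by edgeR, and 0.42 was left after the trend was removed (adjusted p = 0.225). Without sh-control replicate 1 the value was 0.90 (adjusted p = 0.00517), so that 1 library decides whether *NEFM* passes the test. With the trend removed it was 0.81 without that library (adjusted p = 0.000565), and 0.24 and 0.25 without sh-control replicates 2 and 3. *NEFH*, the heavy chain (chromosome 22, 29480218 to 29491390), was close to the limit of detection, with 15, 12 and 14 reads in sh-control libraries compared to 4, 6 and 5 in sh-*RREB1*. All control libraries were above all sh-*RREB1* libraries in CPM, but the log2 fold change of -1.05 (SE 0.45, 95% interval -2.06 to -0.03) missed the threshold (adjusted p = 0.136 by edgeR), as did the -1.73 found with the trend removed (adjusted p = 0.0393). Reads on the opposite strand of *NEFH* made up 33.3% to 53.1% of its reads in sh-control and 70.6% to 81.8% in sh-*RREB1*, and with both strands counted together the value turned to 0.17.

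*INA* encodes alpha-internexin, a neuronal chain made early in development that joins the neurofilament. It lies on chromosome 10 from 103277138 to 103290346. *INA* was at 22.0, 19.6 and 17.5 CPM in the controls and at 24.0, 19.4 and 20.2 CPM in sh-*RREB1*. The groups overlapped throughout, and the log2 fold change was 0.10 (SE 0.16, 95% interval -0.26 to 0.47, adjusted p = 0.698 by edgeR). An increase as large as that fitted for *NEFL* is outside this interval, whereas a difference of up to about 0.47 is not. With the trend removed the value was 0.021 (adjusted p = 0.952), and without sh-control replicate 3 in the uncorrected fit it was -0.00059.

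*PRPH* encodes peripherin, the filament protein of peripheral neurons, on chromosome 12 from 49295147 to 49298686. The control libraries held 20, 38 and 44 of its reads and the sh-*RREB1* libraries 13, 26 and 12, or 0.867, 1.40 and 1.37 CPM against 0.522, 0.993 and 0.949 CPM. The lowest control library lay among the sh-*RREB1* libraries. By edgeR the change was -0.59 on the log2 scale (SE 0.34, 95% interval -1.36 to 0.17, adjusted p = 0.255), and -0.32 without sh-*RREB1* replicate 1. Its exonic GC content of 64.0% put it in the decile of genes whose median log2 fold change was 1.11, and after the trend was removed it was -1.85 (SE 0.30, adjusted p = 0.00154), which made *PRPH* a call. Without each library in turn the corrected value was -2.03 to -1.63 and stayed a call. With that correction 2 of 10 members were called lower, *NES* and *PRPH*, compared to 1.18% of all genes called lower in that fit and 3.01% called in either direction. *TROAP-AS1*, a long noncoding RNA gene, overlaps *PRPH* on the other strand, and reads on that strand made up 25.9% to 31.2% of the reads there in sh-control and 50% to 60.6% in sh-*RREB1*. Whether these reads bear on the count of *PRPH* was not tested.

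The keratins were not called, and their groups overlapped. *KRT8*, the type II keratin of simple epithelia, and *KRT18*, its type I partner, are neighbours on chromosome 12, from 52897187 to 52949954 on the minus strand and from 52948871 to 52952906 on the plus strand, and their annotated ends overlap. *KRT8* was at 11.5, 28.9 and 37.0 CPM in the controls and at 31.5, 59.0 and 43.9 CPM in sh-*RREB1*. *KRT18* was at 36.1, 62.2 and 64.5 CPM in the controls and at 47.2, 76.5 and 60.6 CPM in sh-*RREB1*. For both genes sh-control replicate 1 was the lowest library and sh-*RREB1* replicate 2 the highest, and the groups overlapped. *KRT8* had a log2 fold change of 0.79 (SE 0.38, 95% interval -0.08 to 1.66, adjusted p = 0.182 by edgeR). For *KRT18* it was 0.18 (SE 0.24, 95% interval -0.38 to 0.73, adjusted p = 0.661). After removal of the trend the values were 0.33 (adjusted p = 0.320) and -0.26 (adjusted p = 0.117), so the direction of *KRT18* turned. Without sh-control replicate 1 *KRT8* was at 0.40 and *KRT18* at -0.08, and without sh-*RREB1* replicate 2 they were at 0.54 and -0.01. With the trend removed, *KRT8* was at 0.087 without sh-control replicate 1, 0.55 without replicate 3 and 0.22 without sh-*RREB1* replicate 2.

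Both keratin genes have many processed copies in the genome, and reads can be split between parent and copy. The 51 annotated pseudogenes of *KRT8* took 21.8% to 38.5% of the reads on parent and copies together, the most in sh-control replicate 1. The 67 of *KRT18* took 13.2% to 19.98%. With these reads added to the parent, the log2 fold change was 0.85 for *KRT8* (adjusted p = 0.0995 by edgeR) and 0.16 for *KRT18* (adjusted p = 0.667), so neither was called. Single values of either gene remain uncertain to that extent.

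*KRT19*, a type I keratin of ducts and simple epithelia (chromosome 17, 41523617 to 41528308), had no read in 5 of 6 libraries and 20 reads in sh-*RREB1* replicate 2. A count of 0 allows up to 3 reads, or 0.0933 to 0.130 CPM in the control libraries, by counting error alone. In sh-*RREB1* replicate 2 it was at 0.764 CPM. No fold change is given, since 1 library holds all the reads, and the exact two-sided permutation test gave a p of 1. The same library held the highest level of each fibroblast marker, but not every marker set it apart. *COL1A2*, a chain of type I collagen, was at 3.93 CPM there, at 0.0791 CPM in sh-*RREB1* replicate 3 and at 0 in the other libraries. *COL3A1*, a fibrillar collagen and the highest of these markers, was at 8.44 CPM there and at 2.37 to 3.45 CPM elsewhere. All 5 of 5 fibroblast markers were measured, their summed level was 4.12 to 4.95 CPM in the controls and 3.56 to 17.0 CPM in sh-*RREB1*, and none was called. The part of other cells in the reads of *KRT19* was not tested.

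*VIM* encodes vimentin, the filament protein of mesenchymal and most cultured cells, and *NES* encodes nestin, a large chain of neural progenitors that needs vimentin or a similar partner to assemble. The 250 bases before the RefSeq start of each are shown because these genes passed the test in opposite directions and have entries in the promoter table, which *NEFL* does not. *VIM* lies on chromosome 10 from 17228241 to 17237593 on the plus strand, and the upstream bases are chr10:17227991-17228240 of GRCh38.p14. *NES* lies on chromosome 1 from 156668763 to 156677407 on the minus strand, and its upstream bases are chr1:156677408-156677657. Both are written 5′ to 3′ on the strand of the gene, with GC boxes (GGGCGG on either strand, so also CCGCCC) in capitals.
VIM: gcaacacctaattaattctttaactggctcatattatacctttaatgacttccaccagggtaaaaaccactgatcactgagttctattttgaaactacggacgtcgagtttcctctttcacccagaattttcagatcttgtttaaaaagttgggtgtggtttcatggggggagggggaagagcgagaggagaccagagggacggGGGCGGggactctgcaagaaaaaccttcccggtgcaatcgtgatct
NES: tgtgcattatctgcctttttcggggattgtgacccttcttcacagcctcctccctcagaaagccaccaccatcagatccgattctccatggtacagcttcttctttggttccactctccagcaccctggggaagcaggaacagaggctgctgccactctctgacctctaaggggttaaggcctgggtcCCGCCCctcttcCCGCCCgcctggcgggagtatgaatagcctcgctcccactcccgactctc
The *VIM* stretch held 1 GC box and had a GC content of 46.0%, and that of *NES* held 2 and had 58.0%, compared to a median of 58.0% over 35116 promoters of the table. Of all promoters 42.6% held a GC box. Neither stretch held a TATA box (TATAAA, in 10.7% of all) or CCAAT (in 32.0% of all). A match is a description of these letters and not of a bound factor. The table had entries for 5 of the 10 members.

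*VIM* was at 329.5, 359 and 329 CPM in the controls and at 567, 615 and 529 CPM in sh-*RREB1*. Every sh-*RREB1* library was above every control library, with a gap much wider than the spread within either group. The log2 fold change was 0.75 (SE 0.10, 95% interval 0.52 to 0.98, adjusted p = 0.00393 by edgeR), and 0.68 after removal of the trend (adjusted p = 0.000371). *VIM-AS1* and another noncoding RNA gene overlap *VIM* on the other strand, so a count that ignores strand drops reads as ambiguous and kept 43.6% to 65.9% of those counted on the gene's strand. With both strands counted together the value was 0.54 (adjusted p = 0.0175). Without sh-control replicate 2 or 3, or sh-*RREB1* replicate 1, 2 or 3, the adjusted p by edgeR was 0.0321, 0.0139, 0.0167, 0.0107 and 0.0247, with log2 fold changes of 0.69 to 0.80.

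*NES* was at 19.7, 22.4 and 23.5 CPM in the controls and at 7.71, 11.5 and 8.31 CPM in sh-*RREB1*. The highest sh-*RREB1* library, replicate 2, was still well below the lowest control library. The log2 fold change was -1.25 (SE 0.19, 95% interval -1.69 to -0.82, adjusted p = 0.00519 by edgeR). Its exonic GC content was 59.3%, and the median of genes in that decile was 0.61, so the value of *NES* minus that of its decile was -1.86. After the trend was removed the log2 fold change was -2.13 (adjusted p = 3.12e-05). Leaving out sh-control replicate 2 or 3, or sh-*RREB1* replicate 1 or 3, ended the call, with an adjusted p of 0.0332, 0.0116, 0.0217 and 0.0354 by edgeR and log2 fold changes of -1.27, -1.23, -1.14 and -1.19. With the trend removed, *NES* was called without each library in turn, from -2.26 to -1.91.

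**Figure D2:**
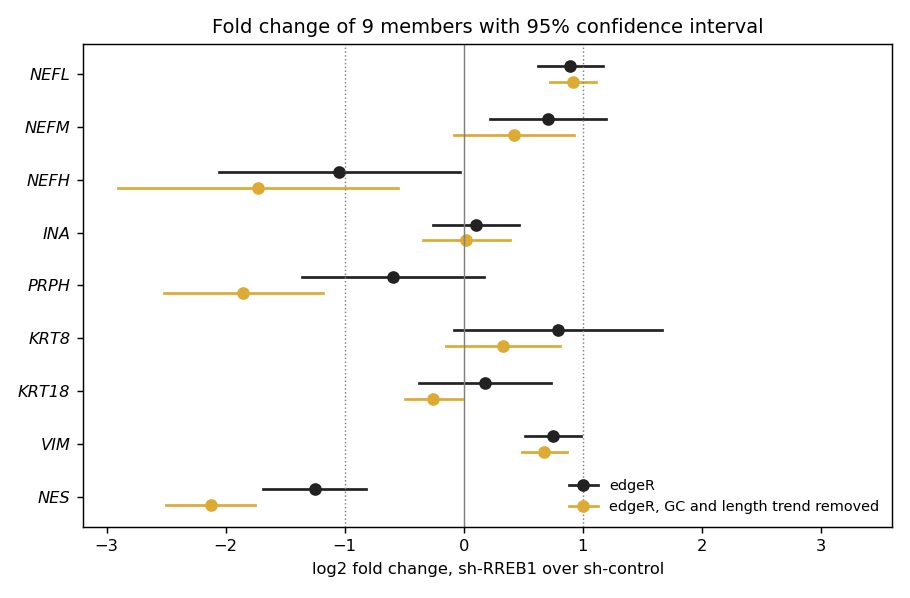
Log2 fold change of 9 members, sh-RREB1 over sh-control, with 95% confidence intervals from edgeR (black) and from edgeR with the GC and length trend removed (yellow); dotted lines mark the fold change limit of 1, and *KRT19* is left out because 1 library holds its reads. *NEFL* and *VIM* stay near 0.90 and 0.75 in both fits, *NES* moves from -1.25 to -2.13 and *PRPH* from -0.59 to -1.85.

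**Figure D3:**
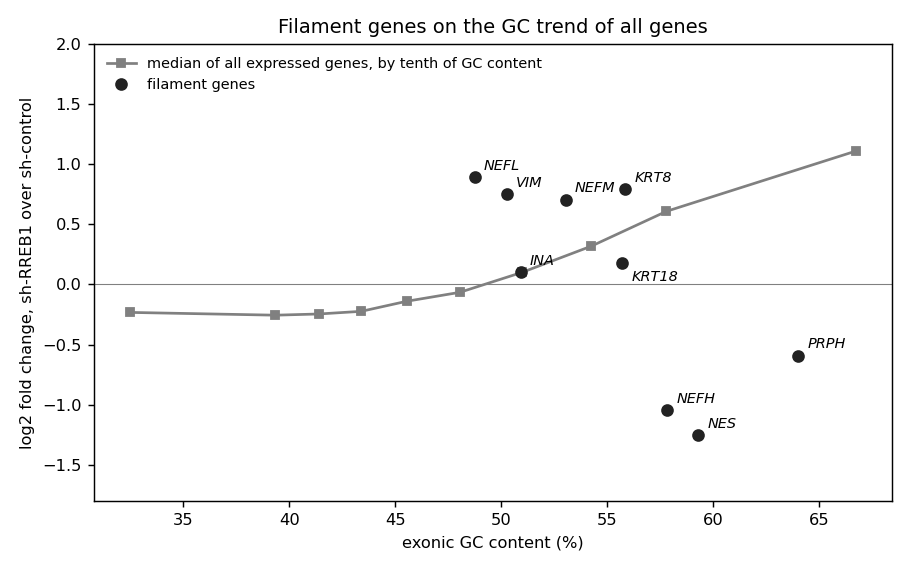
Log2 fold change of 9 members against their exonic GC content in percent (black, *KRT19* left out), with the median of all expressed genes in each decile of GC content (grey squares, placed at the middle of the decile's range). The value minus the median of the decile is -1.65 for *NEFH*, -1.86 for *NES* and -1.70 for *PRPH*, and 0.96 for *NEFL* and 0.65 for *VIM*.

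Levels between genes were compared as TPM, in which reads are divided by the exonic length of the gene. *VIM* was the highest member in every library (median 329 TPM, range 241 to 438) and *KRT18* the second (median 73.5 TPM, range 54.0 to 82.6), and their ranges did not touch each other or those of the rest. *NEFL*, *NEFM*, *INA* and *KRT8* followed with medians of 33.5, 28.5, 22.5 and 19.3 TPM, and their ranges overlapped, so their order is not set beyond the spread of the libraries. *NES* had a median of 11.0 TPM (range 5.35 to 16.3), its upper values overlapping the lower values of *KRT8* and *NEFM*. *PRPH* and *NEFH* were at 1.41 and 0.404 TPM, and their ranges just parted. *KRT8* has 18 annotated transcripts, and with the length of the longest transcript in place of all exons it was 3rd in the order, with 34.7 TPM, not 6th.

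Of the summed TPM of the 10 genes, *VIM* made up 57.2% to 69.8%, the neuronal filament genes 15.2% to 19.8% and the keratins 12.7% to 23.8%. The sum itself was 421 to 461 TPM in sh-control and 564 to 627 TPM in sh-*RREB1*, with *VIM* as its largest part in both groups. *NES* made up 3.49% to 3.81% in sh-control and 0.884% to 1.13% in sh-*RREB1*. In bulk RNA, a change in the number of cells expressing a gene and a change in its RNA per cell cannot be told apart.

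**Figure D4:**
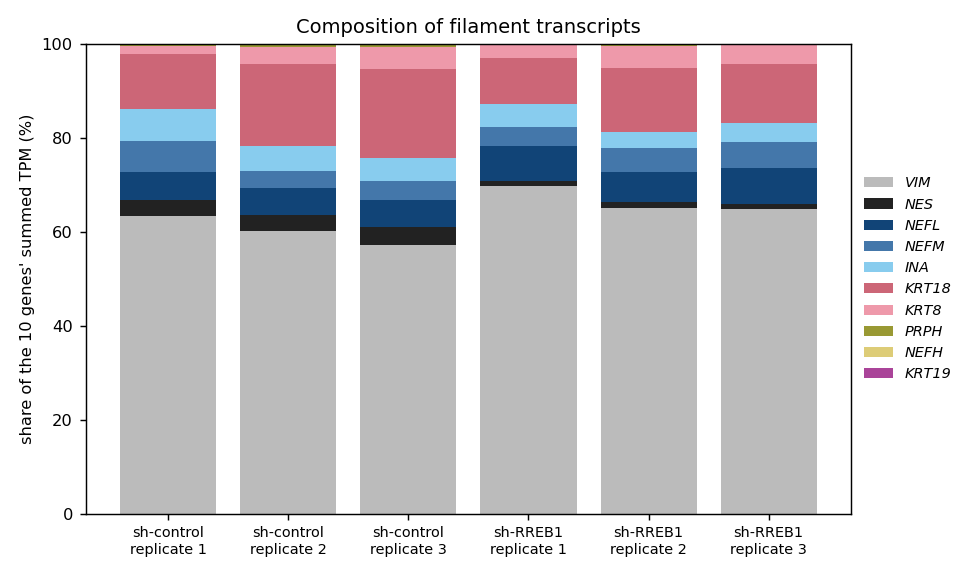
Share of each gene in the summed TPM of the 10 intermediate filament genes, in percent, as stacked bars for the 6 libraries. *VIM* fills 57.2% to 69.8% of every bar, the *NES* band is narrower in the 3 sh-RREB1 libraries, and *PRPH*, *NEFH* and *KRT19* are too low to see well.

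The comparison of neuronal against epithelial filament types was made within each library, as the log2 ratio of summed reads per kb. The neuronal genes over the keratins were at 0.57, -0.48 and -0.64 in sh-control and at 0.38, -0.29 and 0.07 in sh-*RREB1*. The 3 sh-*RREB1* libraries lay within the range of the controls, with a difference of 0.24 between group means and an SD of 0.65 in sh-control. No shift of the balance between these types was detectable beyond that spread. Without *NEFL* the difference was 0.04, and without *INA* it was 0.43, still within 1 SD of the controls. Sh-control replicate 1 held the highest ratio of all, and the keratins were lowest there.

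Of the other ratios computed, 4 separated the libraries by label. *VIM* over *NES* was at 4.17, 4.11 and 3.91 in sh-control and at 6.30, 5.85 and 6.10 in sh-*RREB1*, a difference of 2.02 on the log2 scale. *VIM* over the sum of all other members was at 0.79, 0.59 and 0.42 in sh-control and at 1.21, 0.90 and 0.89 in sh-*RREB1*, with a narrower gap. *INA* over *NEFL* was at 0.18, -0.15 and -0.27 in sh-control and at -0.66, -1.002 and -0.95 in sh-*RREB1*, so the lowest control was above the highest sh-*RREB1* library. *KRT8* over *KRT18* was at -2.82, -2.27 and -1.97 in sh-control and at -1.75, -1.54 and -1.63 in sh-*RREB1*. The sh-*RREB1* libraries were all nearer to equal amounts of the keratin partners, but the lowest control library was the one with the largest share of *KRT8* reads on pseudogenes. *NEFM* over *NEFL* overlapped, from -0.67 to 0.15 in sh-control and from -0.81 to -0.34 in sh-*RREB1*. Of these ratios only *KRT8* over *KRT18* and *NEFM* over *NEFL* were planned. The separation of *VIM* over *NES*, *VIM* over all other members and *INA* over *NEFL* follows from the fold changes of these genes given above. It is no separate support for them. All these ratios are descriptions of chosen members and carry no p.

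**Figure D5:**
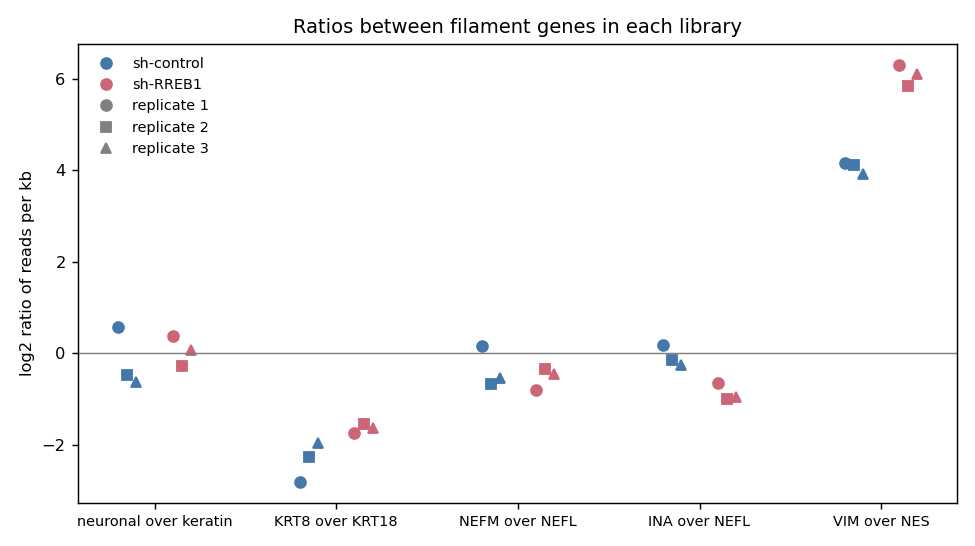
Log2 ratio of reads per kb between filament genes in each library, with sh-control in blue and sh-RREB1 in red and a shape for each replicate number. The group means of *VIM* over *NES* are 4.06 and 6.08, and the neuronal over keratin ratio overlaps between groups.

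Beyond the 10 members, few filament genes were expressed. Of 51 other keratins 35 had no read in any library and 3 could be tested. *KRT10*, a keratin of differentiated epidermis, was the highest, at 12.7, 8.96 and 7.71 CPM in sh-control compared to 10.6, 7.45 and 8.62 CPM (adjusted p = 0.737 by edgeR). *KRT75*, a keratin of hair follicles, led the type II genes at a trace, with no read in sh-control and 0.241, 0.496 and 0.237 CPM in sh-*RREB1*, and was not called (adjusted p = 0.0128), but it was with the trend removed (adjusted p = 0.00738). No fold change is given for it, since every control library was at 0. Of 6 other cytoplasmic filament genes 5 were tested and 1 was called, against 3.38% of all genes. *SYNC*, which encodes syncoilin, a muscle filament protein, was at 7.33, 7.38 and 7.65 CPM in the controls and at 2.21, 2.33 and 2.61 CPM in sh-*RREB1*. It fell to a level below every control library, with a log2 fold change of -1.65 (adjusted p = 0.00193 by edgeR) that was -1.58 after removal of the trend. *SYNM*, which encodes synemin and was the highest of these genes, was at 20.2 to 23.2 CPM in the controls and 17.0 to 21.1 CPM in sh-*RREB1* (adjusted p = 0.405). The median log2 fold change of the 5 tested was -0.20.

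Of the 3 nuclear lamins, the filament proteins under the nuclear envelope, only *LMNB2* was called, against 3.38% of all genes. It was at 35.1, 71.8 and 85.2 CPM in the controls and at 171, 197 and 173 CPM in sh-*RREB1*. Its log2 fold change was 1.49 (adjusted p = 0.00914 by edgeR), but *LMNB2* has a GC content of 62.3% and only 0.42 was left after removal of the trend. *LMNB1*, the highest lamin, was at 332 to 338 CPM in the controls and at 256 to 279 CPM in sh-*RREB1* (log2 fold change -0.34, adjusted p = 0.0352, and -0.40 with the trend removed, adjusted p = 0.00746). The median of the 3 lamins was 1.37, or 0.42 with the trend removed.

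Genes that bind filaments to other structures, modify them or turn them over showed no call before the trend was removed, and 2 after it. The shares of all genes called in these fits were 3.38% and 3.01%. Of 7 plakins, the linkers of filaments to junctions and the cytoskeleton, 6 were tested, with a median log2 fold change of -0.04. *DST*, the highest, which encodes dystonin, was at 612 to 781 CPM in the controls and 597 to 665 CPM in sh-*RREB1*. *EPPK1*, which encodes epiplakin, a keratin-binding plakin, was at 1.34, 2.28 and 2.33 CPM in sh-control against 2.49, 3.70 and 2.29 CPM. Its log2 fold change was 0.52 (adjusted p = 0.237 by edgeR) and turned to -1.30 with the trend removed (adjusted p = 0.00194), a call. Of 8 desmosome genes 6 were tested, with a median of -0.28, and *DSG2*, a desmosomal cadherin and the highest, had a log2 fold change of -0.53 (adjusted p = 0.0157 by edgeR), or -0.28 with the trend removed. Only *PKP2* among them had an adjusted p below 0.01 before the trend was removed. Its log2 fold change was -0.71 (adjusted p = 0.00886 by edgeR), or -0.59 with the trend removed (adjusted p = 0.00169), short of the fold change limit. Of 13 filament kinases, chaperones and turnover genes 12 were tested, with a median of 0.09. *CDK1*, a mitotic kinase known to phosphorylate vimentin, was the highest of them, at 332 to 365 CPM in the controls and 198 to 274 CPM in sh-*RREB1* (log2 fold change -0.56, adjusted p = 0.0202, and -0.39 with the trend removed). *HSPB1*, a small heat shock protein that binds filaments, was at 0.434, 2.20 and 4.08 CPM in sh-control against 12.4, 15.6 and 11.2 CPM. All sh-*RREB1* libraries were higher, with a log2 fold change of 2.51 (adjusted p = 0.0153 by edgeR) that was a call at 1.41 with the trend removed (adjusted p = 0.00288).

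Markers of the cell types for which the filaments are known were measured beside them. Of 12 neuronal markers 9 were tested, and 1 was called higher and 1 lower, against 3.38% of all genes called in either direction. The median log2 fold change of those tested was 0.24. The summed level of the list was 147 to 195 CPM in the controls and 252 to 301 CPM in sh-*RREB1*. *MAP2*, a dendritic microtubule protein, was at 4.77, 4.08 and 4.98 CPM in the controls and at 10.8, 10.1 and 8.86 CPM in sh-*RREB1* (log2 fold change 1.11, adjusted p = 0.00562 by edgeR, and 1.27 with the trend removed). *STMN2*, a tubulin-binding protein of growing axons, was at 3.95, 3.23 and 3.11 CPM in the controls and fell to 0.201, 0.115 and 0.158 CPM in sh-*RREB1* (log2 fold change -4.40, adjusted p = 0.000611, and -4.13 with the trend removed). *UCHL1*, a ubiquitin hydrolase abundant in neurons, made up most of the summed level. It was at 127 to 173 CPM in the controls and 227 to 271 CPM in sh-*RREB1*. Its log2 fold change was 0.67 (adjusted p = 0.0132 by edgeR), and 0.29 was left with the trend removed (adjusted p = 0.0311). *DCX*, a microtubule protein of migrating neurons, had no read in sh-control and 0.237 to 0.267 CPM in sh-*RREB1*, and was called only with the trend removed (adjusted p = 0.00498).

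Of 8 epithelial markers 7 were tested and none was called, with a median of -0.30 and a summed level of 221 to 270 CPM in the controls and 168 to 194 CPM in sh-*RREB1*. Most of it was *TJP1*, a tight junction scaffold, at 162 to 197 CPM and 128 to 153 CPM. Only *CDH1*, E-cadherin, had an adjusted p below 0.01 before the trend was removed. Its log2 fold change was -0.89 (adjusted p = 0.00938 by edgeR), and -0.88 with the trend removed (adjusted p = 0.00117). *OCLN*, a tight junction protein, was at -0.76 (adjusted p = 0.0101) and at -0.56 with the trend removed (adjusted p = 0.00272). All 6 mesenchymal markers were tested and none was called, with a median of 0.22 and a summed level of 329 to 367 CPM in the controls and 336 to 346 CPM in sh-*RREB1*. *CDH2*, N-cadherin, was at 97.8 to 102 CPM in the controls and 92.9 to 97.2 CPM in sh-*RREB1*. The list was split in direction. *ZEB1* had a log2 fold change of -0.78 (adjusted p = 0.00951 by edgeR), and -0.57 with the trend removed (adjusted p = 0.00183). *SNAI2* and *ZEB2* were both at 0.31 (adjusted p = 0.123 and 0.157). With the trend removed they were at 0.58 and 0.50 (adjusted p = 0.000981 and 0.00224). Of 5 kidney lineage markers 4 were tested and none was called. *PAX2*, a defining factor of the embryonic kidney, was near 0, at 0.0933 to 0.130 CPM in the controls and 0.306 to 0.475 CPM in sh-*RREB1*. Of 5 blood cell markers 2 were tested, none was called and 2 had no read. The part of other cells in the members' values was not tested.

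For each member with a mean of at least 1 CPM, the gene with the most similar levels was found by Pearson r of log2 CPM over the 6 libraries, among 14595 genes. *NEFL* was closest to *FIRRE*, a long noncoding RNA gene (r = 0.9996), *VIM* to *MBOAT1*, a lysophospholipid acyltransferase (r = 0.9996), and *NES* to *HDAC8*, a histone deacetylase (r = 0.999). *KRT8* was closest to *WDR6* (r = 0.9997) and *KRT18* to *CFL1*, which encodes cofilin (r = 0.998). *NEFM* was closest to *ZNF460* (r = 0.994) and *INA* to *DPY19L2* (r = 0.986). *PRPH* was closest to an unnamed noncoding gene (r = 0.988). The points share libraries, depth and the GC trend, and the best of so many genes over 6 points is high by selection, so these values describe likeness in these libraries only.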

How the data were processed

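Counts of 6 HEK293T libraries were used. The authors used STAR (version 2.4.2a), hg38 and the Gencode version 25 annotation, and deposited raw read counts per gene for each strand, with no normalization, and a merged table, whose 24635 identifiers equalled the gene-strand counts. The gene-strand counts were used. Lines of reads on no gene were left out, 8853232 to 13201426 unassigned and 948964 to 2608366 ambiguous reads per library. Of 58037 identifiers 57992 remained without pseudoautosomal duplicates and 56948 had a symbol. Where identifiers shared a symbol the one with most reads was kept, and those without one kept their own name.

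Genes with at least 10 summed reads were tested by the quasi-likelihood method of edgeR 4.0.16 under R 4.3.3, with TMM scaling and no term but condition, and with DESeq2 1.42.0 as an alternative. CPM follows TMM scaling. TPM used exonic length from Gencode version 44 (GRCh38). For the GC and length correction, each library's trend was fitted by natural splines (5 degrees of freedom) and entered as an offset, which would also take away a real difference that tracks GC. 98.7% of tested genes had a GC value. The sequences are from RefSeq (GRCh38.p14). The test was tried on simulated counts that held no GC trend and no outlying library, so that trial does not show how it performs on libraries with these features. The closest libraries, sh-control replicates 2 and 3, differed by more than sampling noise (chi-square over its degrees of freedom, 5.13). That does not show that they were separate cultures. All libraries were counted separately.

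The members, lists and tests were chosen with earlier results of these data known. Named were all members, *RREB1*, called genes of each list (up to 3 per direction) and its highest gene, and each member's most similar gene. The highest genes of the kidney lineage and blood cell lists are not reported here. *COL1A1*, *COL1A2*, *PAX2*, *EPPK1*, *PKP2*, *HSPB1*, *DCX*, *CDH1*, *OCLN*, *ZEB1*, *ZEB2* and *SNAI2* were named after their values were seen. Alternatives were DESeq2, other scalings, filters and thresholds, both strands, the merged table, the replicate block, the GC and length correction, and each library left out. The pseudogene sums and the ratio by longest transcript were added after seeing the data. The ratios of *VIM* to *NES*, of *VIM* to all other members and of *INA* to *NEFL* were not planned. The ChIP and protein experiments were not analysed here.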

Additional observations from a re-analysis of the deposited data

Results flagged for a closer look

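Reads on the strand opposite to a gene were not used in the comparisons. Over *NEFL* they had a mean of 0.497 CPM in sh-*RREB1* and 0.111 CPM in sh-control, with every sh-*RREB1* library above every control library. Over *PRPH* the means were 1.07 and 0.492 CPM, and over *VIM* 0.573 and 0.176 CPM, with the same separation. These differences were not tested. For *NEFL* and *VIM* the opposite strand held at most 1.12% and 0.13% of the reads on both strands. Sh-*RREB1* replicate 3, the library with 52.1% of reads at more than one position, had the most reads on the opposite strand over all genes, 3923750 compared to 1207964 to 1718516 in the others.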

How the results depend on the processing

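*NES* stayed lower than in sh-control under all 23 alternatives run and was called in 19. *NEFL* and *VIM* stayed higher in all 23, below an adjusted p of 0.01 in 18 and 17. Leaving out each library in turn gave log2 fold changes of 0.82 to 0.91 for *NEFL*, 0.69 to 0.80 for *VIM* and -1.45 to -1.14 for *NES*, with adjusted p up to 0.0326, 0.0321 and 0.0354. With both strands counted together *VIM* was at 0.54 (adjusted p = 0.0175) and *NEFH* at 0.17. Without a library 0 to 1 members were called, and 2 members with the GC and length trend removed, with each library left out or with the block as well. Over all genes 798 were called in the reported fit, 1656 by DESeq2, 1829 with a minimum of 1 read, 2053 at an adjusted p below 0.05, 8 to 1120 without a library, and 456 to 714 with the trend removed and a library left out (507 without sh-control replicate 2, and 496 and 456 without sh-*RREB1* replicates 1 and 3). Leaving out a control library gave 1120, 9 and 380 for replicates 1, 2 and 3, and leaving out sh-*RREB1* gave 25, 136 and 8. Upper-quartile scaling lowered the median of all genes to -0.08 and library totals raised it to 0.09. Of the calls 79.6% were higher, 72.6% with upper-quartile scaling, 87.0% with library totals and 60.8% with the trend removed.

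*KRT18* was at -0.26 with the trend removed, and at -0.33, -0.21, -0.24, -0.15, -0.33 and -0.28 with sh-control replicate 1, 2 or 3 or sh-*RREB1* replicate 1, 2 or 3 left out as well. Leaving out a library gave *KRT18* -0.081 to 0.34 and *INA* -0.00059 to 0.17, and with the trend removed *INA* ranged from -0.14 to 0.19 (-0.027 and -0.11 without sh-control replicates 2 and 3). *KRT8* moved to rank 3 by longest transcript. The cause of these shifts was not tested. *KRT19* could not be tested without sh-*RREB1* replicate 2.

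The replicate number as a block gave 1707 called genes, and 886 with the trend removed, 2 of them members (*KRT18* was at -0.26). Same-numbered libraries deviated together in pairs 1 and 2 (r = 0.50 and 0.43) and not in pair 3 (r = -0.28). The deviations were taken from group means of 3 libraries, so these r values depend on each other. They cannot settle whether the numbers mark shared cultures or batches. Sh-control replicate 3 correlated best with sh-*RREB1* replicate 2. The block alone changed no call among the members, but it lowered the adjusted p of *KRT8*. By edgeR *KRT8* was at 0.79 without the block (adjusted p = 0.182) and at 0.90 with it (adjusted p = 0.0101). With the block and the trend removed it was at 0.38 (adjusted p = 0.0188). How far *KRT8* differs thus depends on whether the replicate numbers mark pairs. *NEFH* and *PRPH* had at most 44 reads per library, and *KRT19* 20, so depth limits what can be said of them.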
